A study of Mus musculus with 6 samples.

Results

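RNA-binding, splicing and helicase genes were followed here in cochleae of mice exposed to sound, with or without a later injection of mesenchymal stromal cells. The 55 genes were chosen by symbol from the study's own lists of genes called lower (2741 genes) or higher (1137 genes) in MSC treated cochleae. Of the 3716 listed genes that carry a symbol, out of 41096 genes in the table, these 55 bear the names of splicing factors, RNA helicases, translation factors, ribosomal proteins and related families. The lower list held 40 of them and the higher list 15. Because those lists were made on the contrast described here, the direction of each gene's difference was part of its selection, and the differences below are given as a description, without a test of the group.

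Sequencing libraries were made from left cochleae of 6 animals, the sound trauma specimens 6, 8 and 10 and the MSC treated specimens 13, 18 and 20. All 6 were mice of the strain labelled C56Bl/6 (C57BL/6 in the methods, female and 4 weeks old), exposed to noise at 16 kHz for 4 h in the methods. At 48 h after the exposure the MSC treated animals received 1 µl of mesenchymal stromal cells of human Wharton's jelly, the connective tissue of the umbilical cord, through the posterior semicircular canal, which opens into the same fluid as the cochlea. The labels describe the other animals as exposed to sound only, whereas the methods give them an injection of artificial perilymph. RNA was taken 48 h after treatment according to the labels and 72 h according to the methods, which also name 5 animals per group, while 3 libraries per group were analysed here. No cochlea without sound exposure was analysed here, so neither group shows the level of these genes before noise. Each value is a scaled count, the reads of a gene multiplied by 1 factor per library, and each library held between 9170390 and 11030863 reads on genes. Specimens 6 and 8 stood apart from the other libraries: 28.2% of all genes tested had their highest value in specimen 8 and 30.1% their lowest in specimen 6, and the estimates that rest most on them are given with and without them. Symbols are paired with genes only in the study's lists, so a marker can be read only where it is listed. Of 7 proteins typical of the cochlea, 2 were listed, both on the higher list, so their direction between groups was part of their selection. They summed to 1421, 1584 and 3612 in specimens 6, 8 and 10, against 2423, 3062 and 2605 in specimens 13, 18 and 20.

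RNA-binding proteins accompany a transcript through its whole life. The spliceosome, built from small nuclear RNAs and proteins such as the Sm core and the SF3 complexes, removes introns; regulators such as the RBFOX, CELF, NOVA, ELAVL and SRRM families decide which exons are kept. DEAD-box and DEAH-box helicases remodel RNA, initiation factors bring the ribosome to the message, and ribosomal proteins of the cytosol and of mitochondria form the ribosomes themselves. Most of these families have members in every cell and a few members confined largely to neurons; the latter give neuronal transcripts their own exons, and one of them, RBFOX3, is the antigen known as NeuN, the usual stain for mature neurons. In the cochlea the neurons are those of the spiral ganglion, which carry the signal of the hair cells to the brainstem.

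None of the 55 genes passed an adjusted p of 0.05 (limma with Benjamini-Hochberg adjustment over 15970 genes, adjusted p from 0.954 to 0.978), and neither did any other gene (0% of all genes tested). The fitted direction was that of the study's list for every one of them, lower in 40 and higher in 15, with a median log2 fold change of -0.22 against 0.001 over all genes tested. Unadjusted p-values under 0.05 were found for 1 lower member, Mrpl46, and 1 higher member, Rpl39, where 0.67% of all genes were lower and 1.68% were higher by the same measure. edgeR's quasi-likelihood test also gave 2 members at that level, beside 266 lower and 259 higher genes over all genes tested. DESeq2 gave 10 members, beside 550 lower and 249 higher genes. Neither gave a member after adjustment. The 3 MSC treated values lay below all 3 sound trauma values for 6 members (Rbm4b, Snrpd3, Sf3a2, Eif4g3, Larp6 and Mrpl46) and above them for 1 (Rpl39); over all genes tested this separation was met by 2.92% in the lower and 4.25% in the higher direction. Since the list was made on this contrast, nothing is read from these counts. Leaving out some 1 library moved the log2 fold change by over 1.5 times, or turned its sign, in 49 of the 55 members; the exceptions were Snrpd3, Sf3a2, Ddx24, Eif4g3, Mrpl46 and Rpl39. The values without a library given below are mostly the ones nearest to 0 or of opposite sign, while leaving out specimen 10 enlarged most of the neuron-restricted differences.

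The 12 genes of the neuron-restricted class, a class drawn up with the members known, had a median log2 fold change of -0.97, with members from -1.39 to 0.53, and the median of the other 43 was -0.16. Without specimen 8 these medians were -0.19 and -0.09, and without specimens 6 and 8 they were 0.51 and -0.05, so the contrast between the classes rested on those libraries and was not tested. The class held 16 symbols, and Elavl4, Celf6, Nova2 and Khdrbs2 were in neither list. The cochlea is a mixed tissue, so in these bulk libraries fewer cells of a type and less RNA per cell cannot be told apart. Markers of the cerebellum and of the choroid plexus, tissues outside the cochlea, were also high in specimens 6 and 8 (values below). RNA of spiral ganglion neurons and of brain therefore cannot be told apart in the neuron-restricted values.

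**Figure D1:**
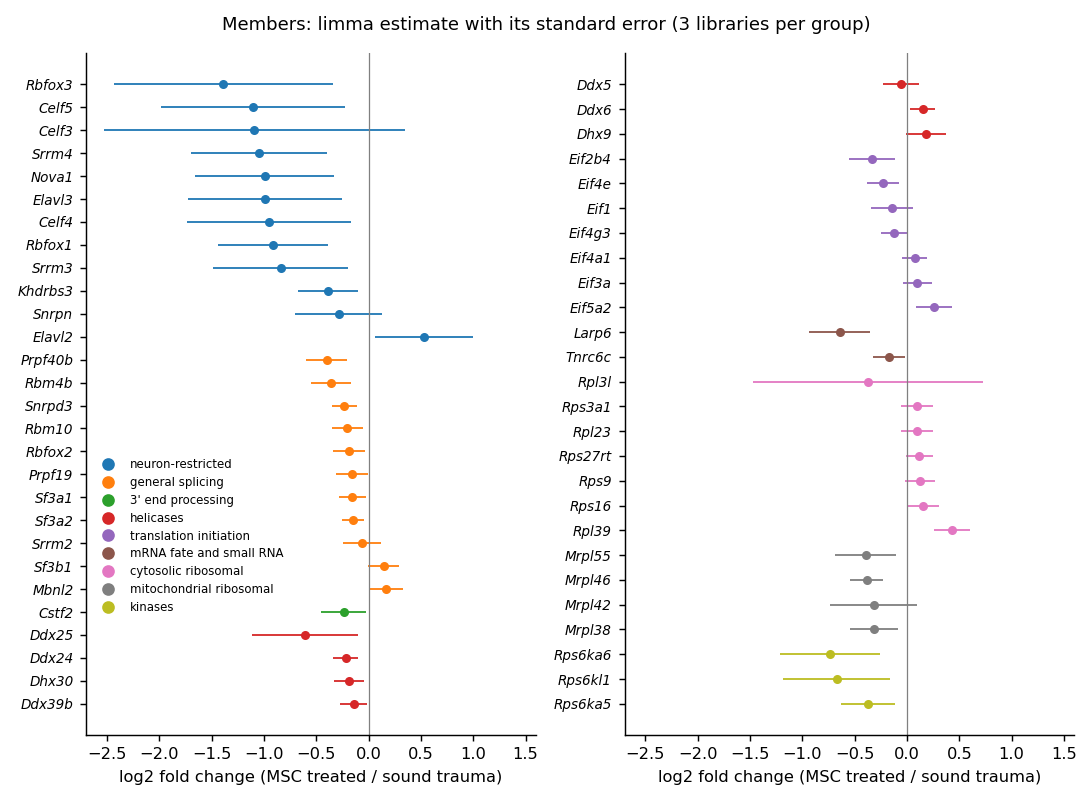
log2 fold change (MSC treated over sound trauma, x axis) of the members named in the text with its limma standard error, coloured by class. The neuron-restricted genes reach -1.39 with standard errors up to 1.44, while the general splicing genes lie between -0.40 and 0.16.

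Among the splicing regulators of neurons, Rbfox3 (NeuN) had scaled counts of 409, 2789.8 and 138 in specimens 6, 8 and 10, against 135, 193 and 334 in specimens 13, 18 and 20. Specimen 8 stood alone at 12.6 times the mean of the MSC treated libraries, specimen 6 was also above all of them, and specimen 10 lay inside their range, so that the groups overlapped. The log2 fold change was -1.39 (SE 1.05), -0.21 without specimen 8 and 0.58 without specimens 6 and 8. Its relative Rbfox1, which binds the same motif, is also used by muscle, so the class name is loose for it. Rbfox1 had 1532, 1309.8 and 563 in the sound trauma libraries and 1036, 332 and 492 in the treated libraries. Here specimens 6 and 8 were high alike and MSC treated specimen 13 reached 1036. The muscle markers given below were highest in specimens 6 and 13, and their part was not tested. The log2 fold change of Rbfox1 was -0.91 (SE 0.53). It became -0.75 without specimen 8, -0.63 without specimen 6, -0.54 without specimen 18 and -0.02 without specimens 6 and 8.

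The CELF family regulates splicing and mRNA stability, and Celf3, Celf4 and Celf5 are largely confined to the nervous system. Celf4 had 486, 2158 and 227 in the sound trauma libraries and 229.6, 347 and 411 in the treated libraries, with specimen 8 at 6.56 times the mean of the MSC treated libraries. Celf5 had 64.9, 520.1 and 46.5 in the sound trauma libraries and 41.6, 58.2 and 64.1 in the treated libraries; specimen 8 stood at 9.52 times that mean, while specimens 6 and 10 differed little from the treated animals. Without specimen 8 the log2 fold change of Celf5 went from -1.10 (SE 0.88) to -0.03, and that of Celf4 from -0.95 (SE 0.78) to -0.05; without specimens 6 and 8 they were 0.21 and 0.49. Celf3 was the most scattered member of the class, with 506, 543 and 14.3 in specimens 6, 8 and 10, against 132, 30.6 and 103 in specimens 13, 18 and 20. Specimens 6 and 8 were both high, at 5.72 and 6.14 times the mean of the MSC treated libraries, and specimen 10 was the lowest of all at 0.16 times. The groups overlapped, and the log2 fold change of -1.09 (SE 1.44) became -0.22 without specimen 8, -0.27 without specimen 6, -2.79 without specimen 10 and 2.31 without specimens 6 and 8.

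Srrm4 and Srrm3 encode activators of neuronal microexons, exons of a few codons that are spliced in mainly in neurons but also, among others, in hair cells. Srrm4 had 197, 639.6 and 98.3 in the sound trauma libraries and 85.2, 135 and 121 in the treated libraries (log2 fold change -1.05, SE 0.65, -0.31 without specimen 8 and 0.18 without specimens 6 and 8). Srrm3 had 338, 772 and 113 in the sound trauma libraries and 144, 185 and 192 in the treated libraries (log2 fold change -0.84, SE 0.65, -0.18 without specimen 8 and 0.60 without both). Both were highest in specimen 8 and next highest in specimen 6, and for both specimen 10 was within or below the range of the treated animals. The widely expressed Srrm2, a scaffold of nuclear speckles, differed little (log2 fold change -0.06, SE 0.18), and Srrm4 amounted to 20.9, 54.3 and 9.31 scaled counts per 1000 of Srrm2 in specimens 6, 8 and 10, against 8.62, 13.4 and 11.7 in specimens 13, 18 and 20. Srrm3 followed the same order in the sound trauma animals, at 35.9, 65.6 and 10.7 per 1000 of Srrm2, against 14.6 to 18.6 in the treated animals.

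Nova1, a splicing regulator of inhibitory synapse proteins, had 192, 381 and 54.5 in the sound trauma libraries and 86.2, 87.8 and 66.0 in the treated libraries. Specimens 6 and 8 were above, and specimen 10 below, all of the treated animals (log2 fold change -0.99, SE 0.67, -0.37 without specimen 8 and 0.53 without specimens 6 and 8). Snrpn, an imprinted Sm protein of neurons whose transcript also carries Snurf, had 566, 957 and 292 in specimens 6, 8 and 10, against 364, 519.8 and 460.1 in specimens 13, 18 and 20. Its log2 fold change of -0.29 (SE 0.42) became 0.12 without specimen 8. Khdrbs3 (SLM2), which sets neurexin splicing, had 296, 190.3 and 156 in the sound trauma libraries and 165, 126 and 188 in the treated libraries. It was highest in specimen 6, and specimen 8 was barely above the treated animals. Its log2 fold change of -0.39 (SE 0.28) became -0.13 without specimen 6 and 0.01 without specimens 6 and 8.

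The ELAVL proteins bind AU-rich elements and stabilise neuronal messages. Elavl3 had 652, 2392 and 286 in the sound trauma libraries and 272, 457 and 458 in the treated libraries (log2 fold change -0.99, SE 0.73, -0.17 without specimen 8 and 0.43 without specimens 6 and 8), and like Rbfox3 and Celf4 it was far highest in specimen 8. Elavl2 was the only neuron-restricted member on the study's higher list, with 127, 204 and 78.6 in the sound trauma libraries and 124, 156 and 318 in the treated libraries. Its highest value was in MSC treated specimen 20 and its lowest in sound trauma specimen 10, and the log2 fold change of 0.53 (SE 0.47) became 0.13 without specimen 20. The ratio of Elavl3 to Elavl2 was 5.12, 11.7 and 3.64 in the sound trauma libraries and 2.20, 2.92 and 1.44 in the MSC treated libraries, so the 3 values of each group did not overlap; this ratio compares a gene of the lower list with a gene of the higher list, which fixes its direction.

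Over the class, 9 of the 12 genes were highest in specimen 8, 2 in specimen 6 and 1 in specimen 20. Specimens 6 and 8 were each above all 3 treated animals for 11 genes, and specimen 10 was above them for none, within their range for 6 and below it for 6. Relative to their mean level in the treated animals, the median difference was 0.86, 2.38 and -0.51 on the log2 scale in specimens 6, 8 and 10. Among the MSC treated libraries it was -0.32, 0.11 and 0.25 in specimens 13, 18 and 20. With specimen 8 left out the class median was -0.19 (main estimate -0.97), with specimen 10 left out it was -1.67, and with specimens 6 and 8 left out, which leaves specimen 10 alone as sound trauma and has no replicate check in that group, it was 0.51 with 11 of 12 genes higher and Rbfox1 at -0.02.

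**Figure D2:**
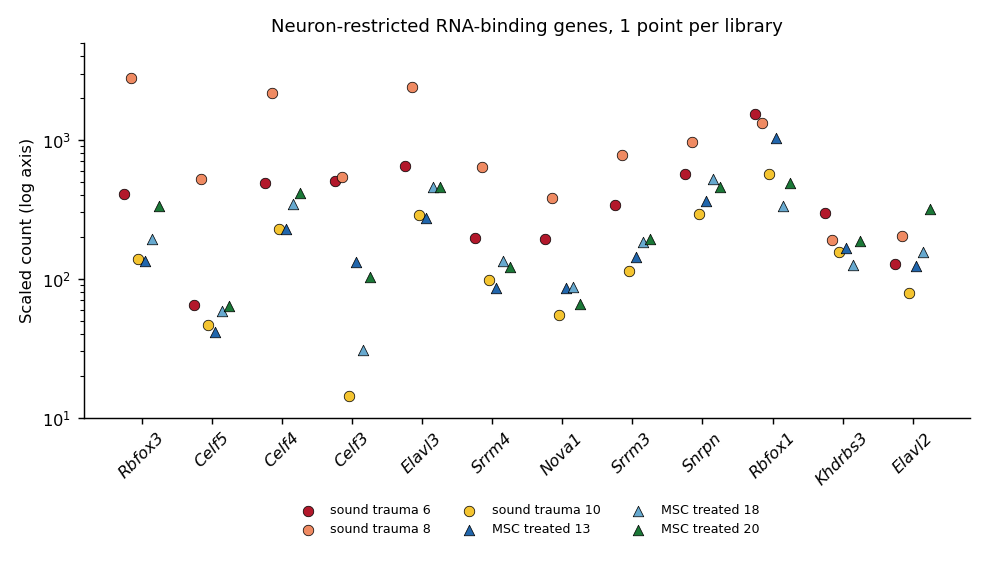
Scaled counts (log axis) of the 12 neuron-restricted genes in the 3 sound trauma libraries (circles) and the 3 MSC treated libraries (triangles). The circle of specimen 8 is the highest point for 9 genes, and the circle of specimen 10 falls within or below the triangles for all 12.

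Markers of brain cells were also unevenly spread over the libraries. The 7 listed of 12 neuronal markers summed to 10193, 26890.1 and 6124 in specimens 6, 8 and 10, against 6967, 9647 and 11096 in specimens 13, 18 and 20, so that specimen 8 was far the highest and specimen 6 lay below treated specimen 20. The 10 listed of 12 markers of cerebellar neurons summed to 4234, 24722 and 1724 against 1841, 2369 and 1667, and all 10 were highest in specimen 8; the defining marker Cbln3 had 615, 5659.9 and 8.04 against 21.8, 29.6 and 23.3. The 6 listed of 7 oligodendrocyte markers were all highest in specimen 8 as well, and summed to 23329, 32471 and 10072 against 9187, 22935 and 11799, with treated specimen 18 close to specimen 6. The 3 listed of 8 hair cell markers ran the other way, at 291, 272 and 674 against 513, 637 and 488, but all 3 came from the study's higher list. All 7 markers of the choroid plexus, the brain tissue that makes cerebrospinal fluid, were listed and summed to 8285, 5597 and 366 against 332, 429.97 and 327. Of 5 astrocyte markers, 4 were listed, at 5854, 12929 and 2728 against 1927, 4315 and 2289.9. Apart from the neuronal marker Uchl1, on the higher list, the markers of the other sets in this paragraph were on the lower list. The direction of each set between the groups was therefore part of its selection. The part of these cell types in the neuron-restricted values was not tested.

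Ratios to neuronal markers depended on the marker. Uchl1, a deubiquitinating enzyme abundant in neurons, was the 1 neuronal marker of the 7 that was not highest in specimen 8, and it was chosen for comparison after its values were seen. Like Elavl2, it was on the higher list, as the only marker of the 7, and both were highest in specimen 20 and lowest in specimen 10. Their similar course was therefore part of the choice. Elavl2 amounted to 98.9, 124 and 108 scaled counts per 1000 of Uchl1 in specimens 6, 8 and 10, against 123, 114 and 134 in specimens 13, 18 and 20. Over Snap25, a protein of synaptic vesicle fusion, it amounted to 27.5, 16.4 and 25.0 per 1000 in the sound trauma libraries and to 39.5, 33.1 and 79.2 in the treated libraries. Rbfox3 amounted to 88.4, 225 and 43.8 per 1000 of Snap25 in the sound trauma libraries and to 43.1, 40.9 and 83.1 in the treated libraries. Elavl3 per 1000 of Snap25 was 141, 193 and 91.0 against 87.0, 96.7 and 114. Over Syt1, the calcium sensor of synaptic vesicles, Rbfox3 amounted to 0.759, 0.847 and 0.856 in specimens 6, 8 and 10, against 0.426, 0.654 and 0.748 in specimens 13, 18 and 20, and Elavl3 was lowest in specimen 8. Of the 7 listed neuronal markers, 5 gave the highest ratio of Rbfox3 in specimen 8 and 2 in specimen 10; for Elavl3 there were 4 in specimen 8, 2 in specimen 10 and 1 in specimen 6, and for Elavl2, a gene of the higher list, 5 in specimen 20 and 2 in specimen 18.

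Rbfox2, the widely expressed counterpart of Rbfox3, had 1643, 1867 and 1333 in specimens 6, 8 and 10, against 1446, 1356 and 1405 in specimens 13, 18 and 20 (log2 fold change -0.19, SE 0.15, -0.08 without specimen 8 and 0.07 without specimens 6 and 8). The ratio of Rbfox3 to Rbfox2 was 0.249, 1.49 and 0.103 in specimens 6, 8 and 10, against 0.0934, 0.142 and 0.238 in specimens 13, 18 and 20. Specimen 8 was the only library with more Rbfox3 than Rbfox2 scaled counts.

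The 11 general splicing factors had a median log2 fold change of -0.16 (range -0.40 to 0.16), and it was -0.06 without specimens 6 and 8. Prpf40b, a bridge between the ends of an intron, had 567, 672 and 432 in the sound trauma libraries and 453, 357 and 439.7 in the treated libraries, with the largest lower value of the class at -0.40 (SE 0.20), which became -0.25 without specimen 8. Rbm4b, a regulator of alternative exons with a close paralogue in Rbm4, had 136, 170.2 and 122 in the sound trauma libraries and 108, 118 and 104 in the treated libraries. The groups of Rbm4b did not overlap (log2 fold change -0.36, SE 0.19, unadjusted p 0.11, -0.22 without specimen 8), although specimens 10 and 18 were close.

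Parts of the spliceosome core differed by small amounts. Snrpd3, an Sm protein of all spliceosomal small nuclear ribonucleoproteins, had 570.2, 481 and 495 in the sound trauma libraries and 435, 441 and 436 in the treated libraries. Its 3 treated values were nearly equal and below every sound trauma value (log2 fold change -0.23, SE 0.12). Their SD of 3.26 is smaller than counting error alone would usually give, so the near-equality is not read as precision. Sf3a2, of the complex that recognises the branch point, had 1016, 1053 and 1063 in specimens 6, 8 and 10, against 972, 879 and 969.7 in specimens 13, 18 and 20 and also did not overlap (log2 fold change -0.15, SE 0.11). Its partner Sf3b1, which holds the branch point itself, was on the higher list with 2703, 3342 and 3416 in the sound trauma libraries and 3247, 3599 and 3578 in the treated libraries and a log2 fold change of 0.15 (SE 0.15) that became 0.04 without specimen 6. Specimen 6 was low and the other sound trauma values lay among the treated ones. Mbnl2, of the muscleblind family that is sequestered in myotonic dystrophy, had 2312, 1622 and 1864 in the sound trauma libraries and 2321, 2074 and 2039 in the treated libraries and the largest higher value of the class at 0.16 (SE 0.16), which became 0.04 without specimen 8.

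Srrm2 had the most reads of the class, with 9422, 11782 and 10557 in the sound trauma libraries and 9887, 10033 and 10330.2 in the treated libraries, and the highest and the lowest value were both in the sound trauma group. Its log2 fold change of -0.06 became 0.01 when libraries were scaled to their total counts and 0.02 without specimen 8. The remaining general splicing members were Sf3a1, Rbm10 and Prpf19, with log2 fold changes of -0.15, -0.20 and -0.16, standard errors of 0.13 to 0.15 and overlapping groups. They became -0.09 without specimen 8 for Sf3a1, -0.10 without specimen 18 for Rbm10 and -0.03 without specimen 6 for Prpf19. Cstf2, the cleavage stimulation factor subunit that binds downstream of a polyadenylation site and the only 3′ end processing member, had 471, 749 and 608 in specimens 6, 8 and 10, against 417, 559.7 and 560.1 in specimens 13, 18 and 20. It was low in specimen 13 and high in specimen 8 (log2 fold change -0.24, SE 0.21, -0.08 without specimen 8).

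**Figure D3:**
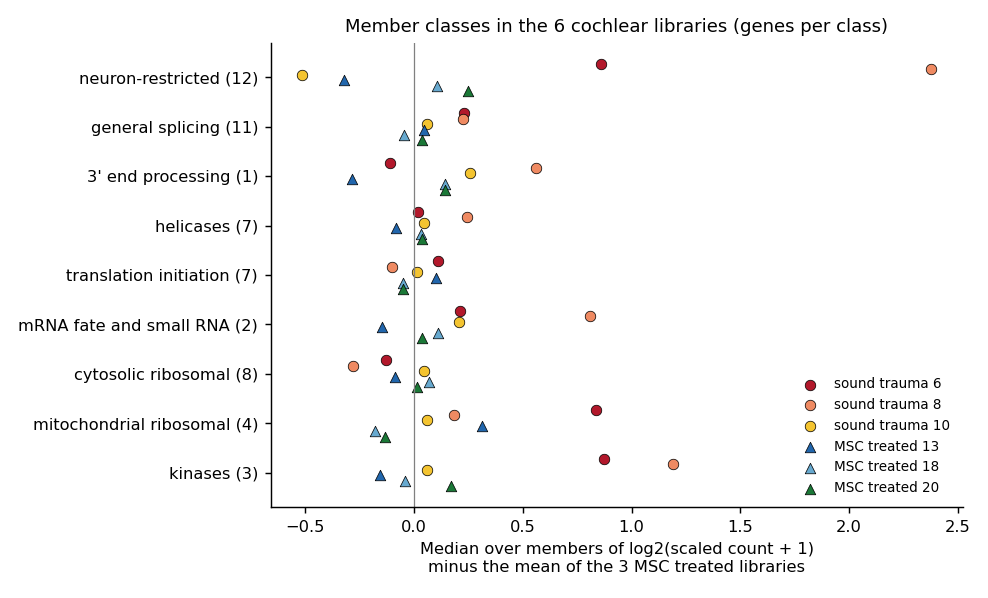
Median over the members of each class of log2(scaled count + 1) minus its mean in the 3 MSC treated libraries (x axis), 1 point per library, with the number of genes in each class on the y axis. Neuron-restricted genes spread from -0.51 to 2.38, and the points of the general splicing class stay between -0.05 and 0.23.

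The 7 helicases had a median log2 fold change of -0.14. Ddx25, a DEAD-box helicase best known from the testis that is also present in brain, had 124, 318 and 84.0 in the sound trauma libraries and 72.7, 128 and 99.98 in the treated libraries, and its value in specimen 8 was more than that of any other library (log2 fold change -0.61, SE 0.50, -0.06 without specimen 8). Ddx24, an RNA helicase of ribosome assembly, had 1409, 1487 and 1322 in the sound trauma libraries and 1138, 1325 and 1162 in the treated libraries. It came close to separating the groups, with specimen 18 just above specimen 10 (log2 fold change -0.22, SE 0.12). On the higher list, Dhx9, which unwinds double-stranded RNA and R-loops, had 1157, 1621 and 1825 in the sound trauma libraries and 1598, 1740.3 and 1792 in the treated libraries, and its log2 fold change of 0.18 (SE 0.19) became -0.01 without specimen 6. Ddx6, the helicase of P-bodies, had 904, 982 and 1115 in specimens 6, 8 and 10, against 1137, 1076 and 1101 in specimens 13, 18 and 20 (log2 fold change 0.15, SE 0.12, 0.08 without specimen 6).

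Ddx5, a coactivator helicase that also acts in splicing, had the most reads of the helicases, with 6943, 8833 and 7710.1 in the sound trauma libraries and 7355, 7376 and 7684 in the treated libraries. As for Srrm2, both extremes were in the sound trauma group, and the log2 fold change of -0.06 (SE 0.17) became 0.01 with total-count scaling and 0.03 without specimen 8. Ddx39b, which loads export factors on spliced mRNA, was the helicase with the next most reads, at 2165, 2528 and 2397 in the sound trauma libraries and 1961, 2191 and 2270.5 in the treated libraries (log2 fold change -0.14, SE 0.13, -0.08 without specimen 13). Dhx30, a helicase of mitochondrial ribosome assembly, had a log2 fold change of -0.19 (SE 0.14), and -0.07 without specimen 8. Of the 7 helicases 5 were highest in specimen 8.

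Initiation factors divided between the lists, 4 lower and 3 higher, with a class median of -0.12 that became 0.04 without specimen 6. Eif2b4, a subunit of the exchange factor on which the integrated stress response acts, had 584, 505 and 387 in the sound trauma libraries and 488, 329 and 352 in the treated libraries, and Eif4e, the cap-binding protein, had 677, 575 and 537 in specimens 6, 8 and 10, against 590.1, 458 and 478 in specimens 13, 18 and 20. Specimen 6 was the highest library for both, and MSC treated specimen 13 lay above specimen 10 in both (log2 fold changes -0.34, SE 0.22 and -0.23, SE 0.16, and -0.20 and -0.14 without specimen 6). Eif4g3, a scaffold that joins the cap to the ribosome, did not overlap between groups, with 3427, 3506 and 3418 in the sound trauma libraries and 3405, 3059 and 3061 in the treated libraries. Specimens 6, 10 and 13 were nearly level, and the log2 fold change was -0.12 (SE 0.12). Eif5a2, an isoform of the factor that carries hypusine, had 299, 309 and 258 in the sound trauma libraries and 283, 377 and 385 in the treated libraries and the largest higher value of the class at 0.26 (SE 0.17).

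Eif3a, a core subunit of the complex that binds the small ribosomal subunit, had 2987, 2646 and 3223 in the sound trauma libraries and 3358, 3012 and 3094 in the treated libraries, and the helicase Eif4a1 had 2854, 2913 and 3148 in specimens 6, 8 and 10, against 3135, 3098 and 3132 in specimens 13, 18 and 20 (log2 fold changes 0.10, SE 0.14 and 0.07, SE 0.12, 0.02 without specimen 8 for Eif3a and 0.04 without specimen 6 for Eif4a1). Eif1, which guards start codon choice, was 2832 in specimen 6 and between 1755 and 2101 in the other 5 libraries; its log2 fold change of -0.14 (SE 0.20) became 0.06 without specimen 6. Of the genes that act on the fate of mature mRNA, Larp6, which binds collagen mRNA, had 162, 276 and 157 in the sound trauma libraries and 96.6, 151 and 125 in the treated libraries. All 3 sound trauma values were above the treated ones, specimen 10 only just above specimen 18, with the largest lower value among the 6 separated members (log2 fold change -0.64, SE 0.29, unadjusted p 0.064, -0.38 without specimen 8). Tnrc6c, a GW182 protein of microRNA silencing, had 1062, 1437 and 1093 in the sound trauma libraries and 1084, 995 and 1077 in the treated libraries (log2 fold change -0.17, SE 0.15, -0.04 without specimen 8).

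Of 90 RefSeq genes for ribosomal proteins of the cytosol, 8 (8.89%) were members, beside 15.9% of 21900 protein-coding genes in the study's lists. Of these 8, 7 were on the higher list, among them Rpl39, Rps16, Rps9, Rps27rt, Rpl23 and Rps3a1, and Rpl3l was on the lower list. Transcripts of ribosomal proteins typically start at a C within a run of pyrimidines (the 5′ TOP motif), through which growth signals set their translation. The 30 bases around the RefSeq start (15 before and 15 after, GRCm38.p6) are shown for 4 of them, Rpl39 because its groups were apart, Rps9 and Rps27rt because they hold the longest run and the only motif match, and Rps16 as a member without either. Capitals mark the longest run of pyrimidines, or the first where runs are equally long. The run of Rps27rt that begins at its annotated start is as long as the one in capitals.
Rpl39 (chrX:37085208-37085237, minus strand): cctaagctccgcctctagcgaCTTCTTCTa
Rps9 (chr7:3704026-3704055, plus strand): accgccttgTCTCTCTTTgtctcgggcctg
Rps27rt (chr9:114982725-114982754, minus strand): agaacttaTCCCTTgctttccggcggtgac
Rps16 (chr7:28350674-28350703, plus strand): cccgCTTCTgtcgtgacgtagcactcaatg
Only Rps27rt began with a C followed by 4 pyrimidines at the annotated start, 1 of 8 windows of cytosolic ribosomal members (2 of them of Rpl3l) beside 2.51% of 32851 windows of all genes. A run of at least 8 pyrimidines was present in 2 of the 8 windows, those of Rps9 and Rpl39, and in 12.003% of all windows. An annotated start can differ from the start used in the cochlea.

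Rpl39, a small protein of the peptide exit tunnel, had 276, 240.0 and 281 in the sound trauma libraries and 293, 398 and 390.2 in the treated libraries. The treated values were above all sound trauma values (265 ± 22.2 against 361 ± 58.6, mean ± SD, n = 3 each), with specimens 10 and 13 the nearest pair. The log2 fold change was 0.43 (SE 0.17) with an unadjusted p of 0.041, and it stayed between 0.35 and 0.57 when any 1 library was left out. Ribosomal protein genes have many near-identical processed copies, and how the authors' counting divided reads among such copies is not given in the sources used here.

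The other 6 of the higher list had log2 fold changes of only 0.09 to 0.15. Rps16 had 2392, 2590.0 and 3051 in specimens 6, 8 and 10, against 2712, 3107 and 3095 in specimens 13, 18 and 20, and Rps3a1, which had the most reads, had 4439.8, 4044 and 5036 in the sound trauma libraries and 4451, 4935 and 5008 in the treated libraries (log2 fold changes 0.15, SE 0.15 and 0.09, SE 0.15, 0.08 without specimen 6 for Rps16 and 0.02 without specimen 8 for Rps3a1). Rpl23, a protein of the large subunit that also binds MDM2, had 3977, 3408 and 4427 in the sound trauma libraries and 3981, 4412 and 4179 in the treated libraries (log2 fold change 0.10, SE 0.15, -0.003 without specimen 8). Rps9 and Rps27rt, the latter a retroposed copy of Rps27 that may share reads with its parent, had log2 fold changes of 0.13 and 0.12, and 0.06 and 0.04 without specimen 8. In the 3 genes given by library, specimens 6 and 8 gave the lowest values, and specimen 10 lay above the treated libraries for Rpl23 and Rps3a1.

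Over the 7 genes, specimens 6 and 8 were below all treated animals for every one, and specimen 10 was above them for 3, within their range for 3 and below it for 1. Together they took 0.179%, 0.193% and 0.233% of reads in specimens 6, 8 and 10, against 0.203%, 0.248% and 0.240% in specimens 13, 18 and 20. A share of reads depends on the most abundant genes, and the top 20 genes took 14.8% of reads in specimen 6 and 5.39% in specimen 8. In scaled counts, 6 of the 7 genes were lowest in specimen 8. The median of the 7 differences was 0.13, and without specimens 6 and 8 all but Rpl39 were fitted lower (Rpl39 0.35). The neuron-restricted genes were high, and the ribosomal genes low, in the same 2 sound trauma libraries.

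**Figure D4:**
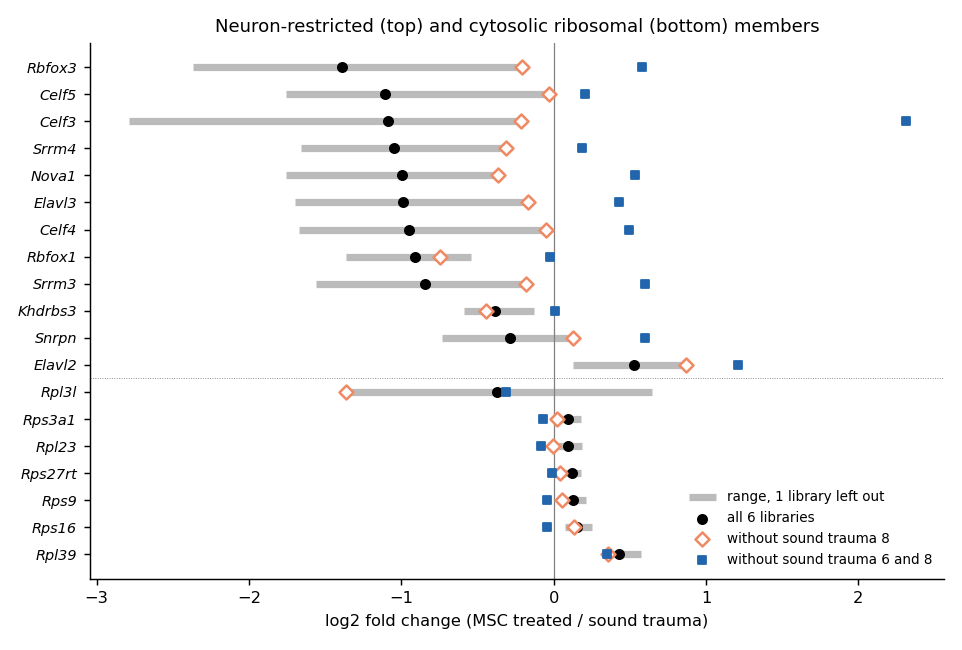
log2 fold change (MSC treated over sound trauma, x axis) of the neuron-restricted genes and of the cytosolic ribosomal genes with all 6 libraries (black), without specimen 8 (open diamonds) and without specimens 6 and 8 (squares), with grey bars for the range when 1 library is left out. Of the 12 neuron-restricted squares 11 are above 0, and of the ribosomal genes of the higher list only Rpl39 keeps its square above 0.

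Rpl3l, the form of ribosomal protein L3 that replaces it in skeletal and heart muscle, followed another pattern, with 2697, 165 and 627 in the sound trauma libraries and 1474, 303 and 288 in the treated libraries. Specimen 6 was the highest and specimen 8 the lowest library, both in the sound trauma group, and the log2 fold change of -0.37 (SE 1.10) ranged from -1.36 without specimen 8 to 0.65 without specimen 6. Ckm, the muscle creatine kinase, had 90483, 4079 and 18392 in specimens 6, 8 and 10, against 50082, 7075 and 7312 in specimens 13, 18 and 20. Per 1000 scaled counts of Ckm, Rpl3l amounted to 29.8, 40.6 and 34.1 in the sound trauma libraries and 29.4, 42.9 and 39.4 in the treated libraries. The ratio of Rpl3l to Rps9, in contrast, ran from 0.0483 in specimen 8 to 0.730 in specimen 6. Other members did not keep a steady ratio to Ckm. Per 1000 of Ckm, Mrpl42 ran from 11.95 in specimen 6 to 93.5 in specimen 8, and Rbfox1 from 16.9 in specimen 6 to 321 in specimen 8. The 10 listed of 11 skeletal muscle markers, all on the lower list, were all highest in specimen 6. They summed to 882101, 34336 and 202434 in the sound trauma libraries, against 500408, 75551 and 83630.0 in the treated libraries.

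**Figure D5:**
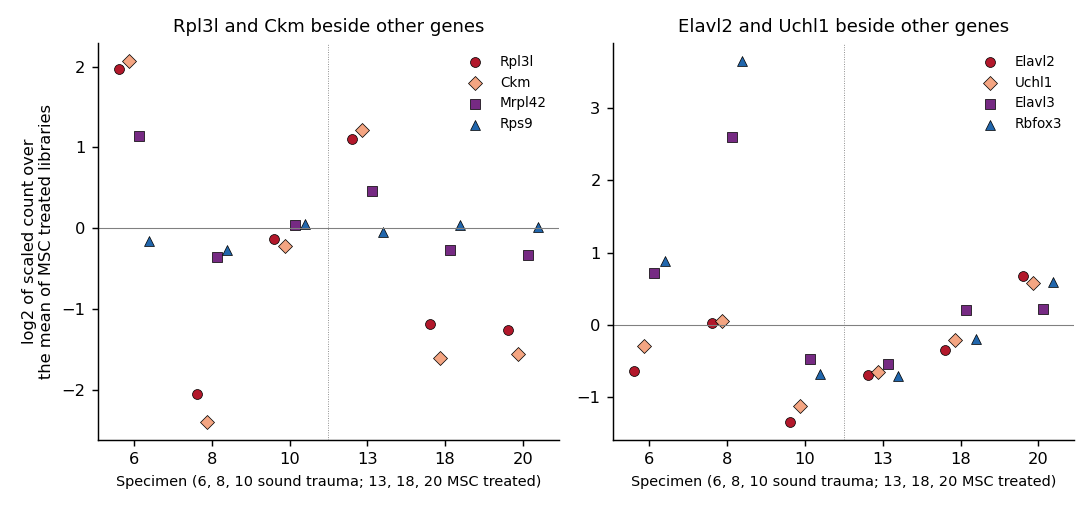
log2 of the scaled count over the mean of the MSC treated libraries (y axis), 1 point per gene and specimen (x axis, no order within a group). Left, Rpl3l follows Ckm from specimen 6 (high) to specimen 8 (low) while Rps9 stays near 0. Right, Elavl2 follows Uchl1, and Elavl3 and Rbfox3 are far higher in specimen 8. Elavl2 and Uchl1 are both on the higher list, and Uchl1 was chosen after its values were seen.

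The 4 mitochondrial ribosomal proteins, all of the large subunit and all on the lower list, were each highest in specimen 6. Mrpl46 had 204, 188 and 176 in specimens 6, 8 and 10, against 128, 154 and 153 in specimens 13, 18 and 20 (189 ± 14.0 against 145 ± 15.02, mean ± SD, n = 3 each), and its groups did not overlap. The log2 fold change was -0.38 (SE 0.16) with an unadjusted p of 0.0495, and it ranged from -0.44 to -0.30 with 1 library left out. Mrpl42 had 1081, 381 and 501 in the sound trauma libraries and 673, 407 and 388 in the treated libraries, and its log2 fold change of -0.32 (SE 0.42) became 0.12 without specimen 6. Mrpl55 had 319, 183 and 167 in the sound trauma libraries and 203, 146 and 145 in the treated libraries and Mrpl38 had 676, 476 and 423 in the sound trauma libraries and 513, 358 and 384 in the treated libraries, both with MSC treated specimen 13 above sound trauma specimens 8 and 10 (log2 fold changes -0.39, SE 0.29 and -0.31, SE 0.23, and -0.10 and -0.12 without specimen 6). The class median went from -0.35 to -0.11 without specimen 6, and the muscle markers above were also highest in specimens 6 and 13. Mrpl46, in contrast, was lowest in specimen 13. Of the 4 genes only Mrpl42 was lowest in specimen 8, where the muscle markers summed lowest. The part of muscle in these values was not tested.

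The name pattern also caught 3 kinases that are not ribosomal proteins. Rps6ka5 (MSK1), a nuclear kinase that phosphorylates histone H3 and CREB, had 178, 313 and 169.7 in specimens 6, 8 and 10, against 160.0, 158 and 171 in specimens 13, 18 and 20 (log2 fold change -0.37, SE 0.26, -0.09 without specimen 8). Rps6kl1 had 101, 161 and 38.4 in the sound trauma libraries and 45.7, 55.1 and 60.2 in the treated libraries and Rps6ka6 (RSK4) had 24.3, 30.6 and 14.3 in the sound trauma libraries and 11.4, 8.17 and 22.3 in the treated libraries, the lowest counts of all members. All 3 were highest in specimen 8 and next highest in specimen 6, with log2 fold changes of -0.67 (SE 0.51) and -0.73 (SE 0.48) for the latter pair (-0.22 without specimen 8 and -0.44 without specimen 18) and a class median of -0.67 that became -0.06 without specimens 6 and 8.

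The promoters of the neuron-restricted members were searched for GGACAGC, the core of the site bound by the neuronal gene repressor REST, on both strands of 300 bases around each RefSeq start. It occurred in 2 of 29 windows (6.90%), both of Snrpn, beside 6.56% of the windows of all genes. TTCAGCACC, the other part of that site, which does not overlap the first motif, occurred in 0 of 78 windows of the 49 members with a window and in 0.371% of all windows. Celf4, Khdrbs3, Mrpl38, Rbfox2 and Ddx6 were among the members with no window.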

How the data were processed

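Per the labels and methods, the authors sequenced total cochlear RNA, aligned it to the C57BL/6NJ genome with the AIR software package and deposited a signal for 41096 genes, in which each library's read counts were rescaled by a single factor; the counting tool and its use of strand are not given in the sources used here. Divided by the worth of 1 read, every deposited signal (100%) came within 0.001 of a whole number, and 1 read was worth 0.893 to 1.16 scaled counts, so that 3 reads, the floor for detection, are about 3 scaled counts. The authors' lists also hold an FDR from NOISeq, log2 fold changes and mean FPKM values. None of these were used, and only the identifiers and symbols of the lists were taken.

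Genes with too few reads were removed with filterByExpr, leaving 15970 of the 25369 genes with at least 1 read, and all 55 members passed. The log2(scaled count + 1) values were fitted in R 4.3.3 with limma 3.58.1 (limma-trend, no covariate), with Benjamini-Hochberg adjustment at 0.05 over all genes tested; a log2 fold change on this scale understates the change of low genes. edgeR 4.0.16, DESeq2 1.42.0 and limma-voom on the recovered reads, other scalings, pseudocounts and filters, and each library left out were alternatives. The scripts were tested on simulated data. Replicates are separate animals. Sequences and promoter windows came from RefSeq (GRCm38.p6); protein sequences were not analysed here. The values of 1 member are not reported here, and counts and medians over a class include it.

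The members and every list, class and marker set were chosen with earlier results of these data known. The text names all neuron-restricted members, all members of classes with up to 6 genes, in larger classes the 2 with the largest lower and higher difference and the 2 with the most reads, and every member whose groups did not overlap; Rbfox2, Sf3a1, Rbm10, Prpf19, Dhx30, Eif1, Eif4a1 and the remaining ribosomal proteins were named in addition after their values were seen. Intervals for counting error were not computed. The biological coefficient of variation over all genes was 34.4%, and for single members, Rps6ka6 with as few as 8 reads in a library among them, counting error can be as large as the spread between animals.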

Additional observations from a re-analysis of the deposited data

How the results depend on the processing

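With 3 animals per group and a biological coefficient of variation of 34.4%, no gene passed adjusted p 0.05 in the main fit, edgeR or DESeq2. Leaving out 1 library gave 0 to 1 such genes over all genes and 0 among the members, and the 1 gene, without sound trauma specimen 10, was no member. The count of members at an unadjusted p under 0.05 (2) was 1 with total-count scaling, upper-quartile scaling, a pseudocount of 10 or no filter, 10 with DESeq2, 0 to 12 with 1 library left out (12 without specimen 10) and 1 without specimens 6 and 8, an alternative chosen after seeing the data. Over all genes, the 107 lower at that level were 266 with edgeR, 61 with total counts, 299 with no filter and 550 with DESeq2, and ran from 50 to 1083 (without specimens 20 and 10) with 1 library left out; the 269 higher were 427 with no filter and 106 to 1395 (without specimens 18 and 10). The neuron-restricted median ran from -1.67 to -0.19 with 1 library left out and was 0.51 without specimens 6 and 8. With edgeR and DESeq2, which compare mean counts, it was -1.43 in both, and 7 members moved by over 1.5 times: in edgeR, Rbfox3 was -2.34, Celf5 -1.95, Celf3 -2.01, Celf4 -1.55, Elavl3 -1.50, Snrpn -0.44 and Rpl3l -0.76. General splicing was -0.086 with total counts, -0.22 to -0.13 with 1 library left out and -0.058 without specimens 6 and 8. Translation initiation ran from -0.17 to 0.044 (without specimen 6) and was -0.015 without both; the kinases ran from -1.03 to -0.22 and were -0.059 without both. With 1 library left out, Cstf2 ran from -0.41 to -0.08, helicases from -0.20 to -0.06, mRNA fate genes from -0.51 to -0.21, cytosolic ribosomal proteins from 0.05 to 0.20 and mitochondrial ribosomal proteins from -0.51 to -0.11. Of 605 member values under settings that kept all libraries, 602 stayed within the spread between replicates. That measure is loose, and no stability is read from the count. The 7 members that moved by over 1.5 times with edgeR and DESeq2 stayed within it. So did all 55 members with any 1 library left out, although 49 of them moved by over 1.5 times or changed sign. Srrm2 and Ddx5 changed sign with total counts. When some 1 library was left out 8 members changed sign, and 24 did without specimens 6 and 8. The cause of these shifts was not tested. No paired analysis was possible because the groups share no specimen numbers.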

Other observations

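RNA-binding genes outside the families named above were counted over a list of 88, of which 16 (18.2%) were in the study's lists, beside 15.9% of protein-coding genes, 10 lower and 6 higher (median log2 fold change -0.19), none of them at an unadjusted p under 0.05 in limma. Adarb2, a brain gene of the RNA-editing enzyme family, had 27.8, 105 and 8.04 in the sound trauma libraries and 5.19, 18.4 and 12.6 in the MSC treated libraries (log2 fold change -1.36, SE 0.93). Its relative Adarb1, which edits glutamate receptor transcripts, had 1481, 3276 and 1233 against 1106, 1864 and 1205 (-0.42, SE 0.40). Both were highest in specimen 8. Eef1a2, the elongation factor of muscle and neurons, had 13431, 6305 and 4085 against 8195, 3393 and 3699 and was highest in specimen 6. On the higher list, Fmr1, whose loss causes fragile X syndrome, had 316, 489 and 510.1 against 478, 590.3 and 620.3 (log2 fold change 0.38, SE 0.22), and Pabpc1, the poly(A)-binding protein, had 7803, 9886 and 14257 against 11532, 12306 and 13296 (0.26, SE 0.27). Both were lowest in specimen 6, and the groups of both overlapped.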
